A study of Homo sapiens with 12 samples.

Results

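The heat shock genes described here were 10 protein-coding genes, HSPA1A, HSPA1B, HSPA8, HSPH1, HSP90AA1, DNAJB1, BAG3, HSPB1, HSPD1 and HSPE1, chosen by symbol from the 26475 gene symbols of the deposited table of expected read counts. All 10 were found in the table, and all 10 were among the 14582 genes that passed the filter on low counts. The 10 were chosen with earlier results of these data known, so their counts beside shares of all genes are no blind comparison. HSPA1A and HSPA1B were also summed, since they are near-identical copies. The list had been named for cytosolic heat shock proteins, but HSPD1 and HSPE1 are mitochondrial chaperonins by background knowledge, so the 10 are called heat shock genes here.

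RNA-sequencing was performed in MIAPaCa2, a human pancreatic ductal adenocarcinoma cell line that relies on glycolysis. Parental cells and oxamate-resistant cells derived from them were each treated with vehicle or with oxamate, an inhibitor of lactate dehydrogenase, with 3 libraries in each of 4 groups and 12 in all. The labels call the vehicle groups untreated and give no genotype or added allele for any group, and the dose and time of the oxamate treatment of these libraries are not given in the sources used here. The resistant cells were polyclonal populations that had survived weeks of continuous culture in sodium oxamate, so the comparison between lines is of 1 derived line with 1 parent. Nothing states whether the 3 replicates were separate cultures, and the p-values measure only the spread between these libraries.

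The libraries held 46698729 to 114222169 expected counts in total, and every parental library was deeper than every resistant library. Levels are given as CPM (counts scaled to the same library total) after trimmed mean of M-values (TMM) scaling, are not divided by gene length and are compared only within a gene. The carcinoma markers KRT8, KRT18, KRT19, VIM and SOX9 had group means between 95.9 and 9899 CPM, whereas EPCAM and CDH1 were at or near 0 (at most 0.0503 CPM in any library) and KRT7 did not pass 0.873 CPM. Of 6 markers of other cell types, PRSS1 and INS were at 0 in all libraries, ALB and PTPRC had group means of at most 0.0283 CPM, PECAM1 of at most 0.115 CPM and COL1A1 of at most 1.89 CPM. COL1A1 moved with the treatment, with log2 fold changes of 0.74 in parental cells (SE 0.15, edgeR adjusted p = 0.000588) and 0.54 in resistant cells (SE 0.16, edgeR adjusted p = 0.0224), and its part in the results was not tested.

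Heat shock proteins are chaperones that hold, fold or help to degrade other proteins. The HSP70 proteins bind short hydrophobic stretches in a cycle of ATP hydrolysis that J proteins start and nucleotide exchange factors end, and HSP90 acts later on a set of client proteins that includes kinases and steroid receptors. When unfolded proteins accumulate, heat shock factor 1 (HSF1) forms trimers and binds heat shock elements, arrays of the 5-base unit NGAAN in alternating orientation, which induces many of these genes. Some, such as HSPA8, are also made at a high level without stress, and cancer cells often hold the system above its level in normal tissue.

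Promoters are shown for the 5 genes with a heat shock element within 150 bases of a start, not for the genes that differed most. RefSeq windows (GRCh38.p14) of the 250 bases before a start site were found for all 10 genes, 14 windows in all since some genes had several starts, and both strands were searched for a 3-unit element, GAANNTTCNNGAA or TTCNNGAANNTTC, and for a 2-unit element, GAANNTTC or TTCNNGAA, which also lies within each 3-unit match. A 2-unit element was in 7 of the 14 windows, covering 7 of the 10 genes, and in 11.6% of 35116 windows of all genes. The 3-unit element was in 3 windows, those of HSPA8, the downstream start of HSP90AA1 and the downstream start of HSPD1, and in 0.441% of all windows. The last 150 bases before the start are printed 5′ to 3′ on the strand of the gene, with the letters of a match in capitals.
HSPA1A, chr6:31815393-31815542, plus strand: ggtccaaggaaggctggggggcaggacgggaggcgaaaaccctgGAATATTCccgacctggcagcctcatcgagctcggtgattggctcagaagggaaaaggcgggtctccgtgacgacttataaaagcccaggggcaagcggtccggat
HSPA1B, chr6:31827588-31827737, plus strand: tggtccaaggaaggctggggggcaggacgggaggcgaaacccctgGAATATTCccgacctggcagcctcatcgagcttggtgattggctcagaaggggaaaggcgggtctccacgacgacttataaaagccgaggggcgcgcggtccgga
DNAJB1, chr19:14518398-14518547, minus strand: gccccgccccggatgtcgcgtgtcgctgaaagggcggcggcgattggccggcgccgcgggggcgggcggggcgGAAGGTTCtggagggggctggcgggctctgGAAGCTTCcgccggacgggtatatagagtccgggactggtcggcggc
HSPA8, chr11:123062137-123062286, minus strand: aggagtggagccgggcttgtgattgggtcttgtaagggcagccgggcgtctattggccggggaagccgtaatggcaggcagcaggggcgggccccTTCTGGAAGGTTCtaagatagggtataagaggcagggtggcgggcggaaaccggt
HSP90AA1, chr14:102087045-102087194, minus strand: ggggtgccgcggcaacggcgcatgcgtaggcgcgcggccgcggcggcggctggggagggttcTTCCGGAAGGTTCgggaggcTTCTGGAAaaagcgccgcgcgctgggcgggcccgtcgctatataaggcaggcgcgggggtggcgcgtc

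The HSPA1A and HSPA1B windows each held a single match with the same letters, at positions -106 and -105 from the start, and the windows were identical at 235 of 251 aligned columns. DNAJB1 held a pair of 2-unit matches, at -77 and -47, and HSP90AA1 a 3-unit match at -88 followed by a 2-unit match at -68. HSPA8 had a 3-unit match at -55 and another at -230, outside the stretch printed. HSPB1 had a 2-unit match at -182, and the downstream start of HSPD1 had overlapping 3-unit matches at -245 and -240. The windows of HSPH1, HSPE1 and BAG3 held neither spelling, which says only that these letters are not in those windows.

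HSPA1A (chr6:31815543-31817942) and HSPA1B (chr6:31827738-31830254) encode the stress-inducible HSP70 of the cytosol and nucleus and lie 9795 bases apart. Of the stretches of 150 bases in the HSPA1A transcript, 67.1% were found unchanged in that of HSPA1B (GENCODE release 29), and 150 bases is the length of 1 read of a sequenced pair. Reads from those stretches cannot be assigned by sequence, and the table gave HSPA1A between 77.0% and 78.4% of the pair's counts in every library. The sum is free of that division and is used first.

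Parental cells held the pair at 515, 495 and 481 CPM with vehicle and at 824, 815 and 863 CPM with oxamate. Resistant cells held it at 131, 132 and 130 CPM with vehicle and at 101, 101 and 105 CPM with oxamate. The 4 groups did not overlap at any point, and their order was parental with oxamate, parental with vehicle, resistant with vehicle and resistant with oxamate. As a share of the mean in parental cells with vehicle, the other means were 168%, 26.4% and 20.6% in that order. HSPA1A alone, at 387 ± 15.5, 648 ± 22.7, 102 ± 1.25 and 79.5 ± 1.77 CPM (SD, n = 3) in parental vehicle, parental oxamate, resistant vehicle and resistant oxamate, and HSPA1B alone, at 110 ± 3.27, 187 ± 4.82, 28.99 ± 0.628 and 22.8 ± 0.456 CPM, kept the same order.

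**Figure D1:**
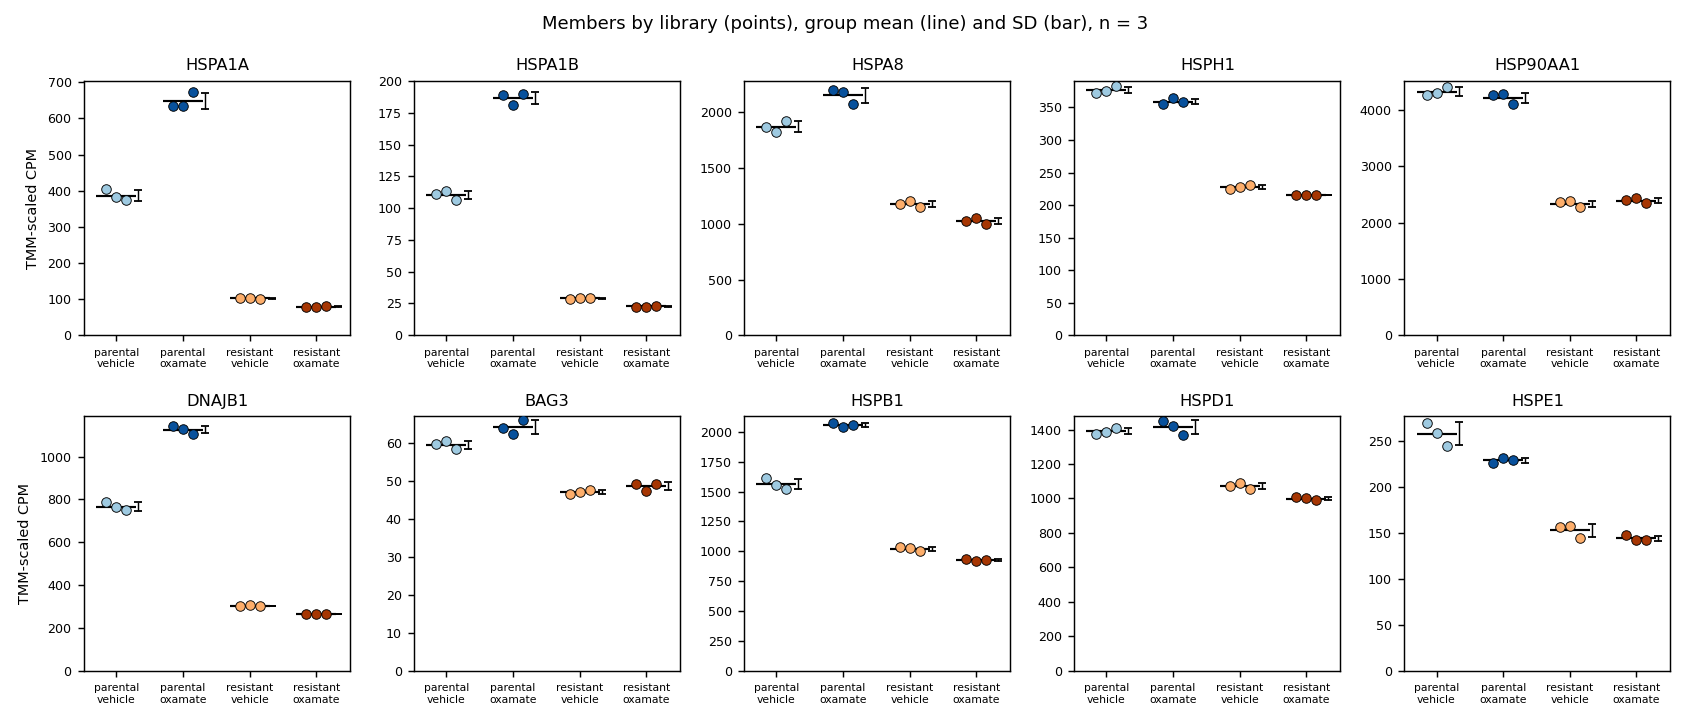
Level of each of the 10 heat shock genes (TMM-scaled CPM, linear axis from 0) in the 3 libraries of each group, with the group mean as a line and the SD as a bar. In every panel the 6 resistant libraries lie below the 6 parental ones, and the gap is widest for HSPA1A, HSPA1B and DNAJB1. The share of all genes so separated was not counted.

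The response of parental cells to oxamate asks which genes move when lactate dehydrogenase is inhibited. HSPA1A and HSPA1B were the only members called, that is with a fold over 1.5 and a p under 0.05 after Benjamini-Hochberg adjustment across the 14582 genes, and both rose; 5.32% of all genes were called higher and 4.06% lower, with 0 members among the lower. At an adjusted p under 0.05 without a limit on fold, 6 members rose (HSPA1A, HSPA1B, HSPA8, DNAJB1, HSPB1 and BAG3), against 28.3% of all genes, and 2 fell (HSPH1 and HSPE1), against 30.4%. The median log2 fold change of the 10 was 0.15 and that of all genes 0.00296. Scaling by library size alone shifted the median of all genes by -0.074, and 5 members then rose and 4 fell at an adjusted p under 0.05. BAG3 (log2 fold change 0.034) was then not among those that rose, and HSP90AA1 (-0.11) and HSPD1 (-0.054) were among those that fell. The shares of all genes were not counted under that scaling, here or below.

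For the pair the log2 fold change was 0.75 (SE 0.029, edgeR adjusted p = 2.33e-11), a 1.68-fold rise. DNAJB1, the J protein that starts the ATPase cycle of HSP70, was at 789, 762 and 748 CPM with vehicle and at 1141, 1130 and 1107 CPM with oxamate. The groups did not overlap, and the log2 fold change of 0.55 (SE 0.023, edgeR adjusted p = 5.15e-11) fell just short of the 1.5-fold limit at 1.47-fold. HSPB1, the small heat shock protein HSP27, which holds unfolded proteins without ATP, stood at 1612, 1552 and 1526 CPM with vehicle and at 2073, 2040 and 2056 CPM with oxamate. Its libraries were separated in the same way, and the log2 fold change was 0.40 (SE 0.024, edgeR adjusted p = 2.18e-09).

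Smaller rises were seen in HSPA8, the constitutive HSP70, and in BAG3, the nucleotide exchange factor that links HSP70 to selective autophagy. HSPA8 was at 1868, 1828 and 1922 CPM with vehicle and at 2199, 2186 and 2077 CPM with oxamate, without overlap, with a log2 fold change of 0.20 (SE 0.029, edgeR adjusted p = 2.17e-05). BAG3 was at 59.7, 60.5 and 58.5 CPM with vehicle and at 64.0, 62.5 and 66.1 CPM with oxamate, with a log2 fold change of 0.11 (SE 0.028, edgeR adjusted p = 0.0033). These 2 changes amounted to 1.15-fold and 1.08-fold.

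After TMM scaling the remaining members fell slightly or did not pass the test. HSPH1, the HSP110 protein that exchanges nucleotide on HSP70 and helps it to dissolve aggregates, was at 372, 375 and 382 CPM with vehicle and at 355, 364 and 358 CPM with oxamate, with a log2 fold change of -0.069 (SE 0.022, edgeR adjusted p = 0.0138). HSPE1, the co-chaperonin HSP10, was at 270, 259 and 245 CPM with vehicle and at 227, 232 and 230 CPM with oxamate, with a log2 fold change of -0.17 (SE 0.036, edgeR adjusted p = 0.000724). Libraries of both genes were separated by treatment, though by less than the separation seen for the pair. HSP90AA1, the inducible form of cytosolic HSP90, was at 4262, 4312 and 4410 CPM with vehicle and at 4266, 4279 and 4108 CPM with oxamate (95% interval of the log2 fold change -0.091 to 0.017, edgeR adjusted p = 0.223). HSPD1, the chaperonin HSP60, was at 1377, 1387 and 1412 CPM with vehicle and at 1450, 1419 and 1369 CPM with oxamate (95% interval -0.030 to 0.073, edgeR adjusted p = 0.472). The libraries of the last pair of genes overlapped between treatments.

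After TMM scaling every member that passed the test with oxamate in resistant cells fell, and the pair by the most. No member was called at a fold over 1.5, 0 higher and 0 lower, where 1.16% of all genes were called higher and 0.158% lower. At an adjusted p under 0.05 alone, 7 members fell (HSPA1A, HSPA1B, HSPA8, HSPH1, DNAJB1, HSPB1 and HSPD1), against 12.5% of all genes, and 0 rose, against 9.01%. The median log2 fold change of the members was -0.12, beside -2.06e-05 for all genes. With scaling by library size alone, which shifted the median of all genes by 0.031, 6 members fell and 1 rose at an adjusted p under 0.05. The 1 that rose was HSP90AA1 (0.063), and HSPH1 (-0.050) no longer passed.

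The pair fell by 0.36 on the log2 scale (SE 0.031, edgeR adjusted p = 1.35e-06), to 77.9% of its level with vehicle. DNAJB1 was at 302, 304 and 302 CPM with vehicle and at 266, 264 and 265 CPM with oxamate, and HSPB1 was at 1035, 1028 and 1001 CPM with vehicle and at 939.5, 922 and 930 CPM with oxamate. Neither gene overlapped between treatments, and their log2 fold changes were -0.19 (SE 0.024, edgeR adjusted p = 7.11e-05) and -0.13 (SE 0.024, edgeR adjusted p = 0.00134). HSPA8 was at 1179, 1202 and 1150 CPM with vehicle and at 1025, 1054 and 1003 CPM with oxamate, and its log2 fold change was -0.20 (SE 0.029, edgeR adjusted p = 0.000325). The falls of HSPD1, from 1073 ± 16.3 to 999.8 ± 8.57 CPM, and of HSPH1, from 228 ± 3.17 to 215 ± 0.606 CPM (SD, n = 3), were of at most 1.07-fold. HSP90AA1 (95% interval of the log2 fold change -0.022 to 0.087), HSPE1 (-0.17 to -0.0078) and BAG3 (-0.016 to 0.11) did not pass, with edgeR adjusted p of 0.383, 0.108 and 0.278, and their libraries overlapped.

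The difference between these 2 responses was tested directly as a contrast of the same fit. For 3 of the 10 members, HSPA1A, HSPA1B and DNAJB1, the response was lower in resistant than in parental cells by more than 1.5-fold, and 0 had a higher one, with 2.53% of all genes called lower and 4.99% higher. At an adjusted p under 0.05 alone HSPA8, HSPB1 and HSPD1 joined them, so 6 were lower and 0 higher, with 21.4% and 22.7% of all genes. Scaling by library size alone shifted the median of all genes by 0.105. By that scaling 5 members were lower, 3 were higher (HSPH1, HSP90AA1 and HSPE1), and HSPD1 was at -0.017. The median difference of the members was -0.26 on the log2 scale, beside -0.00719 for all genes.

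The pair had the widest gap, with a difference of -1.11 (SE 0.042, 95% interval -1.20 to -1.02, edgeR adjusted p = 6.67e-11). For DNAJB1 it was -0.75 (SE 0.034, edgeR adjusted p = 4.2e-10), for HSPB1 -0.53 (SE 0.034, edgeR adjusted p = 1.42e-08), for HSPA8 -0.40 (SE 0.041, edgeR adjusted p = 1.64e-06) and for HSPD1 -0.12 (SE 0.034, edgeR adjusted p = 0.00825). Of these the pair, DNAJB1, HSPB1 and HSPA8 rose in parental cells and fell in resistant cells at an adjusted p under 0.05 in each line, whereas HSPD1 passed in resistant cells alone. After TMM scaling the other 4 did not pass, with 95% intervals of -0.078 to 0.055 for HSPH1, -0.0067 to 0.15 for HSP90AA1, -0.026 to 0.19 for HSPE1 and -0.15 to 0.024 for BAG3.

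**Figure D2:**
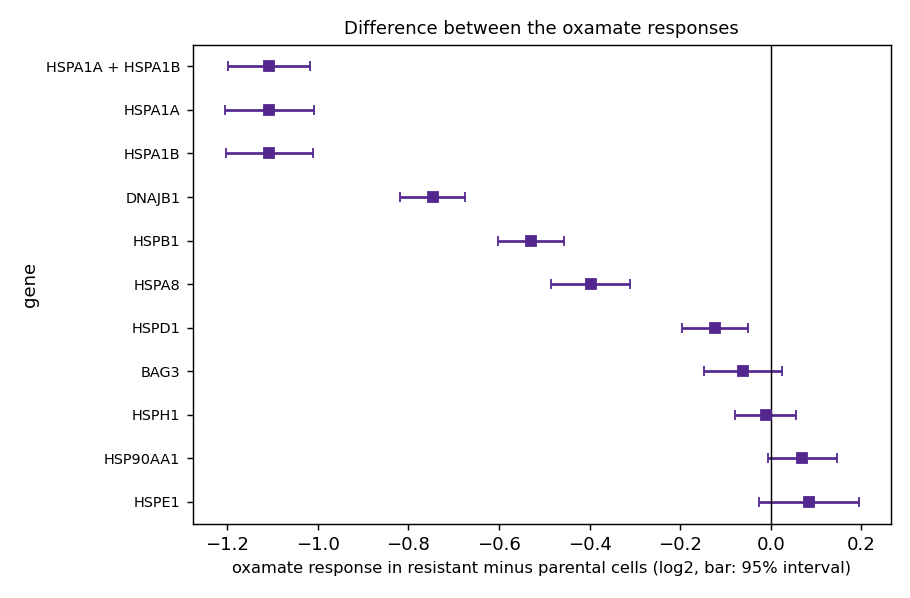
Difference between the oxamate responses of resistant and parental cells (x axis, log2 units, with the 95% interval as a bar) for the pair sum and each of the 10 members (y axis), ordered by value. HSPA1A, HSPA1B and their sum lie near -1.11, DNAJB1 at -0.75, and the intervals of BAG3, HSPH1, HSP90AA1 and HSPE1 cross 0.

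Cells of the 2 lines were then compared under vehicle, which asks what differs once resistance has been acquired. Resistant cells had less mRNA of all 10 members at an adjusted p under 0.05, where 37.3% of all genes were lower and 38.4% higher, and 8 members were called lower at a fold over 1.5, where 6.09% of all genes were called lower and 17% higher. The 2 that were not called, HSPD1 and BAG3, differed by 1.30-fold and 1.26-fold, and 0 members were higher by either criterion. The choice of members with earlier results of these data known limits what these counts can show beside those shares. The median log2 fold change was -0.74, beside 0.025 for all genes. With scaling by library size alone, which shifted the median of all genes by 0.22 on the log2 scale, 4 members were called in place of 8, and all 10 were still lower at an adjusted p under 0.05. In bulk RNA, less of an mRNA in every cell and fewer cells that express it cannot be told apart.

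The largest difference was that of the pair, at a log2 fold change of -1.92 (SE 0.031, edgeR adjusted p = 1.5e-16), 3.79-fold lower in resistant cells. DNAJB1 followed at -1.34 (SE 0.024, edgeR adjusted p = 3.45e-16), 2.53-fold lower. After TMM scaling, though not with library size alone, HSP90AA1 had not moved with oxamate in either line beyond the test. With vehicle it was at 2363, 2379 and 2279 CPM in resistant cells against 4262, 4312 and 4410 CPM in parental cells. That is a log2 fold change of -0.89 (SE 0.026, edgeR adjusted p = 7.49e-14), 1.85-fold lower.

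HSPE1 was at 157, 158 and 145 CPM in resistant cells, with a log2 fold change of -0.76 (SE 0.036, edgeR adjusted p = 3e-11), and HSPH1 at 224.5, 228 and 231 CPM, with one of -0.73 (SE 0.022, edgeR adjusted p = 1.48e-13). HSPA8 and HSPB1, which have the lines' values given above, differed by -0.67 (SE 0.029, edgeR adjusted p = 9.02e-12) and -0.61 (SE 0.024, edgeR adjusted p = 2.82e-12). HSPD1 was at 1074, 1089 and 1056 CPM, and its value was -0.38 (SE 0.024, edgeR adjusted p = 1.04e-09). HSPD1 (chr2:197486584-197500274) and HSPE1 (chr2:197500379-197503449) are transcribed away from each other with 104 bases between their starts, and their proteins form 1 folding chamber. BAG3 differed least, at 46.66, 47.2 and 47.5 CPM with a log2 fold change of -0.34 (SE 0.028, edgeR adjusted p = 2.1e-08). In each of the 10 genes every resistant library lay below every parental library with vehicle. The share of all genes with libraries so separated was not counted, so this says nothing particular to the members. Of the carcinoma markers, KRT8 (-1.11), KRT19 (-0.99), KRT18 (-0.69) and VIM (-0.59) were also called lower in resistant cells under vehicle, by about as much as most members. They were called lower again under oxamate (-1.04, -1.05, -0.83 and -0.72), whereas SOX9 was at -0.016 and 0.53. KRT7 was called higher, at 1.37 and 0.75, but stood at no more than 0.873 CPM in any library. The part of these marker shifts in the results was not tested.

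Under oxamate the lines were further apart than under vehicle in the members that had risen in parental cells and fallen in resistant cells, the pair, DNAJB1, HSPB1 and HSPA8. Again all 10 were lower in resistant cells at an adjusted p under 0.05, where 39.7% of all genes were lower and 40.6% higher, and 8 were called lower at a fold over 1.5, where 11.4% of all genes were called lower and 22.7% higher. HSPD1 and BAG3 were again the 2 not called, and the limit from the choice of members holds here too. The median log2 fold change was -0.94, beside 0.015 for all genes, and with library size alone, which shifted the median of all genes by 0.32, 5 members were called and all 10 were still lower at an adjusted p under 0.05.

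The pair was at a log2 fold change of -3.03 (SE 0.032, edgeR adjusted p = 8.96e-19), 8.16-fold lower in resistant cells, and DNAJB1 at -2.09 (SE 0.025, edgeR adjusted p = 2.36e-18), 4.25-fold lower. HSPB1 was at -1.14 (SE 0.024) and HSPA8 at -1.07 (SE 0.029), with edgeR adjusted p of 1.12e-15 and 2.03e-14. HSP90AA1 at -0.82, HSPH1 at -0.74 and HSPE1 at -0.67 lay close to their values under vehicle, and HSPD1 at -0.50 and BAG3 at -0.40 remained the smallest. These comparisons share libraries with those above and are not independent of them.

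**Figure D3:**
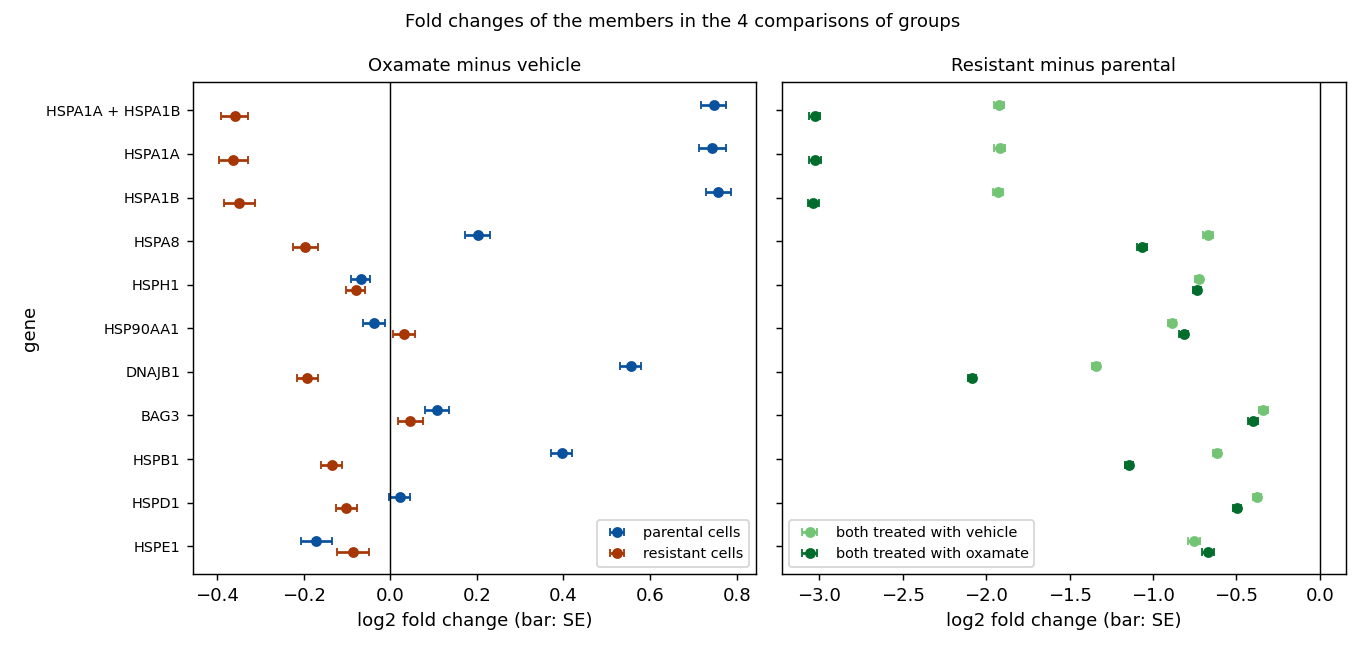
Log2 fold change (x axis, with its standard error as a bar) of the pair sum and each member (y axis) for oxamate against vehicle in each line (left) and for resistant against parental cells under each treatment (right). On the left the pair lies at 0.75 in parental and -0.36 in resistant cells, and on the right all values lie below 0, down to -3.03 for the pair under oxamate.

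As a share of all expected counts, the 10 genes made up 1.03% to 1.05% in parental libraries with vehicle and 1.10% to 1.11% with oxamate. In resistant libraries the share was 0.696% to 0.708% with vehicle and 0.675% to 0.684% with oxamate. The 4 ranges did not overlap and had the order of the pair.

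A change in nuclear-retained RNA ran alongside these groups. MALAT1, a nuclear noncoding RNA, was at 183, 198 and 199 CPM in parental cells with vehicle, 289, 281 and 596 CPM with oxamate, 273, 244 and 596 CPM in resistant cells with vehicle and 577, 609 and 742 CPM with oxamate. NEAT1, the scaffold of paraspeckles, had group means of 139, 365, 364 and 584 CPM in the same order. Both were called higher with oxamate in parental cells and in resistant cells under each treatment, and with oxamate in resistant cells their log2 fold changes of 0.79 and 0.68 did not pass (edgeR adjusted p = 0.064 and 0.075). The parental oxamate replicate 3 and the resistant vehicle replicate 3, the richest of their groups in both RNAs, held the pair at 863 and 130 CPM, beside 815 to 824 and 131 to 132 CPM in the others. Without those 2 libraries the pair's log2 fold changes were 0.72, -0.37, -1.92 and -3.00 and the difference -1.09, and the counts of members called were 2 higher in parental cells with oxamate, 8 lower between lines under each treatment and 3 lower for the difference. The shares of all genes called without them were not counted. MALAT1 and NEAT1 still differed between groups in the libraries that were kept, and the part of nuclear-retained RNA in the results was not tested.

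**Figure D4:**
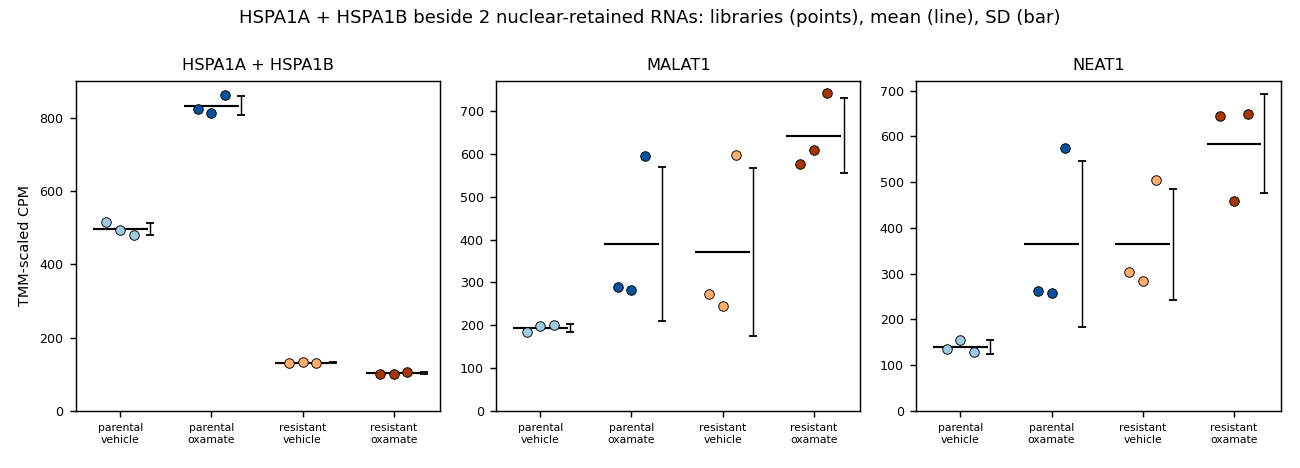
Levels (TMM-scaled CPM, linear axis from 0) of HSPA1A plus HSPA1B, MALAT1 and NEAT1 in the 3 libraries of each group, with the mean as a line and the SD as a bar. MALAT1 and NEAT1 spread widely within parental oxamate and resistant vehicle cells, where the pair does not.

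After TMM scaling HSF1 mRNA had the same order of groups as the pair, over a narrower range, but its direction between lines depended on the scaling. HSF1 was at 170, 163 and 164 CPM in parental cells with vehicle, 179, 176 and 175 CPM with oxamate, 146, 153 and 150 CPM in resistant cells with vehicle and 136, 137 and 137 CPM with oxamate. It rose by 1.06-fold with oxamate in parental cells and fell in resistant cells to 91.3% of its level with vehicle, with log2 fold changes of 0.086 (SE 0.024, edgeR adjusted p = 0.00677) and -0.13 (SE 0.025, edgeR adjusted p = 0.00206). Between lines it was lower in resistant cells, with log2 fold changes of -0.15 (SE 0.025, edgeR adjusted p = 3.76e-05) under vehicle and -0.37 (SE 0.025, edgeR adjusted p = 8.49e-10) under oxamate. With library size alone these were 0.067 (edgeR adjusted p = 0.0125) and -0.045 (edgeR adjusted p = 0.0791), and the change in parental cells was 0.011 (edgeR adjusted p = 0.684). The difference between its responses was -0.22 (SE 0.035, edgeR adjusted p = 0.000118), and -0.11 with library size alone (edgeR adjusted p = 0.0091). HSF2, a related factor, was at 19.7 ± 0.965, 17.6 ± 0.647, 16.9 ± 0.438 and 17.3 ± 0.730 CPM (SD, n = 3) in the 4 groups, and it was never more than 1.17-fold apart in a comparison after TMM scaling. HSF4 stood at 3.37 ± 0.269, 9.79 ± 6.52, 7.51 ± 3.24 and 12.6 ± 2.48 CPM, with its highest value in each of parental oxamate and resistant vehicle cells (17.3 and 11.2 CPM) in the replicate 3 that was also richest in MALAT1. It was called higher with oxamate in parental cells (log2 fold change 1.57, SE 0.36, edgeR adjusted p = 0.00141) and in resistant cells under vehicle (1.16, SE 0.37, edgeR adjusted p = 0.0101), and the part of nuclear-retained RNA in these values was not tested. Of the list of 5 heat shock factors and regulators, 2 were higher and 1 lower in parental cells with oxamate (1 and 2 with library size alone). In resistant cells with oxamate 0 were higher and 1 lower. In resistant against parental cells 1 was higher and 4 lower under vehicle, and 0 and 3 under oxamate (2 and 2, and 1 and 2, with library size alone). The shares of all genes higher and lower were, in that order, 28.3% and 30.4%, 9.01% and 12.5%, 38.4% and 37.3%, and 40.6% and 39.7%.

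The other genes of the heat shock and chaperone system were taken as 10 lists of 90 genes. In resistant against parental cells under vehicle, 37.3% of all genes were lower and 38.4% higher at an adjusted p under 0.05. Under oxamate these shares were 39.7% and 40.6%. Of all genes 6.09% were called lower and 17% higher under vehicle, and 11.4% and 22.7% under oxamate. The list counts between lines are to be read beside these shares. Between lines the counts of most lists moved with the scaling, and the medians of some lists changed sign. Counts at an adjusted p under 0.05 after TMM scaling are given with those for library size alone where they differ. Numbers of genes called and values of single genes are after TMM scaling unless stated. Of 15 genes for HSP90 beta and HSP90 co-chaperones, 13 were lower and 1 higher at an adjusted p under 0.05 under vehicle and again 13 and 1 under oxamate, with median log2 fold changes of -0.42 and -0.34. With library size alone 9 were lower and 4 higher under vehicle and 7 and 6 under oxamate, and the medians were -0.20 and -0.017. AHSA1, the co-chaperone that speeds the ATPase of HSP90, had 206 ± 6.42 CPM in parental cells against 122 ± 5.54 CPM in resistant cells with vehicle (log2 fold change -0.76, SE 0.032, edgeR adjusted p = 6.82e-12). FKBP4, a co-chaperone of HSP90 in steroid receptor complexes, was called under oxamate at 490 ± 5.49 against 299.5 ± 5.52 CPM (-0.71, SE 0.028, edgeR adjusted p = 1.23e-12). Among 12 other cytosolic J proteins, 8 were lower and 3 higher under vehicle and 8 and 2 under oxamate, but 6 and 5, and 6 and 6, with library size alone. DNAJA1 (-1.04, SE 0.034, under oxamate), DNAJB4 (-0.85, SE 0.052, under vehicle) and DNAJB5 (-0.79, SE 0.074, under vehicle) were the lower ones named by size, and DNAJC6, which uncoats clathrin vesicles with HSPA8, was higher under oxamate at 0.99 (SE 0.069).

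Of the 8 other HSP70 and HSP110 proteins, 4 were lower and 1 higher under vehicle, and 2 were lower and 3 higher under oxamate. Their medians were -0.14 and 0.075. With library size alone 3 were lower and 3 higher, and 2 and 5, and the medians were 0.083 and 0.40. HSPA6, the strictly inducible HSP70, was at 3.41, 3.21 and 3.39 CPM in parental cells with vehicle, 2.84, 2.76 and 2.91 CPM with oxamate, 0.332, 0.437 and 0.274 CPM in resistant cells with vehicle and 0.268, 0.232 and 0.235 CPM with oxamate. The lines did not overlap, with log2 fold changes of -3.25 (SE 0.13) under vehicle and -3.53 (SE 0.15) under oxamate, and unlike the pair HSPA6 did not rise with oxamate in parental cells, where its log2 fold change was -0.23 (SE 0.094, edgeR adjusted p = 0.0461). Its reads may be shared with the near-identical pseudogene HSPA7, and its levels in resistant cells were a few times the floor of 3 counts. HSPA1L, the testis HSP70 beside HSPA1A on chromosome 6, was higher in resistant cells at 1.57 (SE 0.27) and 2.05 (SE 0.35), but at group means of 0.146 to 0.825 CPM. BAG5, an inhibitor of the HSP70 cycle, was called higher under oxamate at 34.0 ± 0.527 against 20.8 ± 0.449 CPM (0.71, SE 0.039), and of the 7 other nucleotide exchange and HSP70-binding co-chaperones 5 were lower and 1 higher under vehicle and 4 and 2 under oxamate, and with library size alone 1 was lower and 3 higher, and 2 and 4.

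Among TRiC and the chaperones of other compartments, the direction of most genes held for both treatments under both scalings only for the endoplasmic reticulum. All 8 subunits of TRiC, the chaperonin that folds actin and tubulin, were lower under vehicle and 7 of 8 under oxamate, with medians of -0.39 and -0.25 and 0 called, but with library size alone 5 were lower and 1 higher under vehicle and 3 and 4 under oxamate, with medians of -0.17 and 0.079. Of the 10 other mitochondrial chaperones and proteases, 9 were lower under vehicle, and 8 were lower and 1 higher under oxamate, with 0 called, and with library size alone 3 were lower and 4 higher, and 2 and 2. The 11 chaperones of the endoplasmic reticulum were all lower under vehicle, with 4 called, and 10 were lower under oxamate, with 8 called. With library size alone 8 were lower and 0 higher under vehicle, and 9 and 2 under oxamate. DNAJB9, the J protein of the endoplasmic reticulum that holds IRE1 inactive, was at 49.5 ± 1.11, 64.6 ± 1.73, 22.1 ± 0.376 and 16.8 ± 0.387 CPM (SD, n = 3) in parental vehicle, parental oxamate, resistant vehicle and resistant oxamate cells. That order is the order of the pair, and the difference between its responses was -0.78 (SE 0.047, edgeR adjusted p = 7.76e-09). SDF2L1, a part of chaperone complexes of the same compartment, was lower in resistant cells at -1.35 (SE 0.057) under vehicle and -1.62 (SE 0.059) under oxamate. Of 8 other small heat shock proteins 7 did not pass the filter, and HSPB6, which did, stood at no more than 0.621 CPM in all libraries and passed no test after TMM scaling. With library size alone it was higher in resistant cells under oxamate, at 0.63, at an adjusted p under 0.05.

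The last list held 6 other heat-inducible genes. In parental cells 5 of 6 rose with oxamate at an adjusted p under 0.05 and 0 fell, beside 28.3% and 30.4% of all genes. With library size alone 5 rose and 1 fell. In resistant cells 1 rose and 4 fell, beside 9.01% and 12.5% of all genes. Between lines 5 were lower under vehicle and 6 under oxamate, beside 37.3% and 39.7% of all genes. With library size alone 4 were lower and 1 higher, and 5 and 0. DEDD2 was at 63.6 ± 3.31, 89.0 ± 0.937, 31.0 ± 2.08 and 27.7 ± 0.519 CPM, with a difference between responses of -0.65 (SE 0.062, edgeR adjusted p = 8.13e-07). HMOX1, heme oxygenase 1, rose from 53.5 ± 1.21 to 69.6 ± 0.294 CPM in parental cells and fell from 53.7 ± 2.73 to 42.0 ± 0.277 CPM in resistant cells, a difference of -0.74 (SE 0.047, edgeR adjusted p = 1.32e-08), while under vehicle the lines had a log2 fold change of 0.0046 (SE 0.033).

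With oxamate in parental cells, where 28.3% of all genes were higher and 30.4% lower, several list counts lay near those shares. At an adjusted p under 0.05, the HSP90 list had 4 higher and 6 lower of 15, the other HSP70 and HSP110 proteins 1 higher and 6 lower of 8, the exchange factors 2 higher and 3 lower of 7, the J proteins 4 higher and 3 lower of 12, TRiC 0 higher and 5 lower of 8, the mitochondrial list 3 higher and 4 lower of 10, and the endoplasmic reticulum list 7 higher and 3 lower of 11. With library size alone the counts in that order were 2 and 7, 1 and 6, 2 and 4, 4 and 8, 0 and 8, 1 and 5, and 6 and 4. In resistant cells, where 9.01% of all genes were higher and 12.5% lower, each of these lists had 0 or 1 higher. In that order they had 8, 1, 0, 5, 2, 3 and 6 lower, and some of these counts also lay near the share. With library size alone they had 6, 1, 0, 5, 1, 2 and 5 lower.

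**Figure D5:**
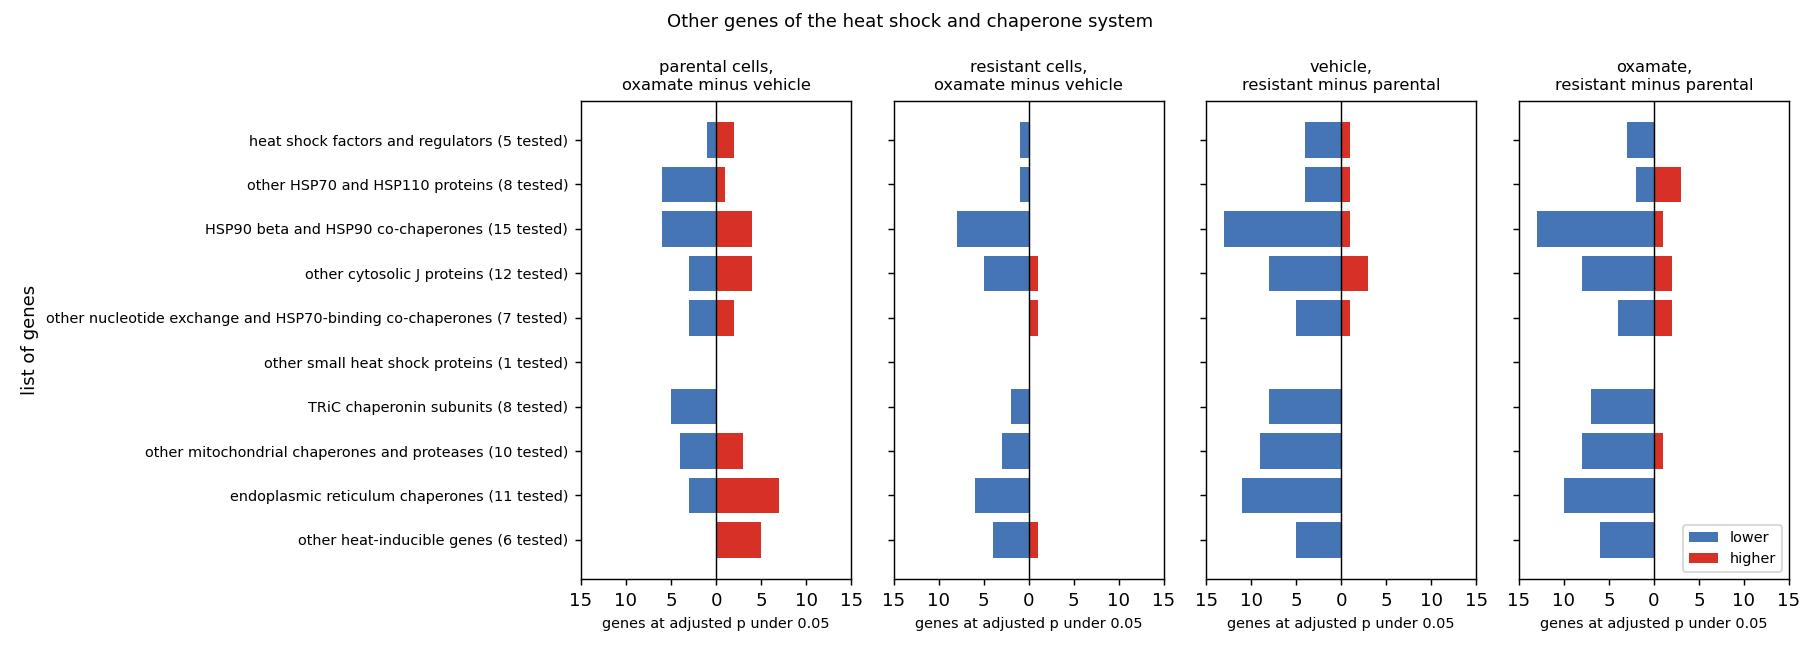
Number of genes of each of 10 lists (y axis, with the number tested) that were higher (red, to the right) or lower (blue, to the left) at an adjusted p under 0.05, in 4 comparisons. After TMM scaling the bars between lines point mostly left, with 13 of 15 genes for HSP90 beta and co-chaperones lower under both treatments against 9 and 7 with library size alone.

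Likeness to the pair was measured as Pearson's r of log2 CPM over the 12 libraries, for the 9613 genes whose mean reached 8 CPM. Since the libraries fall in 4 groups and share depth and scaling between genes, r mainly describes the group means. Among the members r was 0.9993 for DNAJB1, 0.9947 for HSPB1, 0.9936 for HSPA8 and 0.925, the lowest, for HSPE1. Outside the members the 10 genes most like the pair were PER1 (r = 0.9984), PPP1R18, ANGPTL4, PHF13, CSTB, RUSC1, CDKN2D, KLHL21, ZNF296 and TMEM55B (r = 0.9976). PER1, a repressor of the circadian clock, had means of 288, 468, 101 and 79.7 CPM in parental vehicle, parental oxamate, resistant vehicle and resistant oxamate cells, and ANGPTL4, an inhibitor of lipoprotein lipase, had 182, 293, 72.5 and 58.8 CPM. Both spanned a wider range than PPP1R18, at 368, 432, 257 and 234 CPM, or RUSC1, at 52.2, 60.1, 38.0 and 36.0 CPM.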

How the data were processed

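According to the submitters' processing notes and the study's methods, mRNA was enriched with oligo(dT) beads and sequenced in paired reads of 150 bases, reads were mapped with Bowtie2 2.1.0 (hg38), and the authors deposited RSEM 1.2.15 expected counts per gene symbol, without normalization. The methods also describe counts of unique reads from a second pipeline, and 11.6% of the deposited values are not whole, as RSEM gives. Counts were rounded, and group means of all 12 libraries were fitted by glmQLFit and tested by glmQLFTest after filterByExpr and TMM (edgeR 4.0.16 under R 4.3.3), with Benjamini-Hochberg adjustment over 14582 genes. HSPA1A and HSPA1B were summed in a second fit. Standard errors were the absolute log2 fold change divided by the square root of the F statistic. The fits were tested on simulated data. Alternatives used DESeq2 1.42.0, limma 3.58.1, other scalings, filters and thresholds, and libraries left out. Named genes were the members, HSF1, HSF2, up to 2 called genes per list and comparison, and the 10 genes most like the pair. A gene that this rule names is not reported here. The members and lists were chosen with earlier results of these data known. No 2 libraries of a group agreed within sampling noise (chi-square per degree of freedom at least 2.12). A floor of 3 counts is 0.0283 to 0.0581 CPM, and it covers counting error only.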

Additional observations from a re-analysis of the deposited data

Results flagged for a closer look

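The oxamate responses of resistant and parental cells differed by the test of the difference itself (edgeR, adjusted p under 0.05 over all genes tested) for the pair sum and 6 members, with the following differences of log2 fold changes, resistant minus parental. The sum of HSPA1A and HSPA1B differed by -1.11 (adjusted p = 6.67e-11), HSPA1A alone by -1.11 (adjusted p = 1.81e-10) and HSPA1B alone by -1.11 (adjusted p = 1.56e-10). DNAJB1 differed by -0.75 (adjusted p = 4.2e-10), HSPB1 by -0.53 (adjusted p = 1.42e-08), HSPA8 by -0.40 (adjusted p = 1.64e-06) and HSPD1 by -0.12 (adjusted p = 0.00825). With scaling by library size alone HSPD1 differed by -0.017. All 3 resistant libraries with oxamate lay below all 3 with vehicle for each of these genes, and for all but HSPD1 all 3 parental libraries with oxamate lay above all 3 with vehicle. How many of all genes were separated in these ways was not counted. Groups of 3 libraries are too small for a search for outlying libraries.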

How the results depend on the processing

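Of 1587 recomputed values, 1567 kept their direction and side of the threshold or, for counts, lay within 1.5 times the value reported. The limit on fold moved the counts most. With a fold over 2, the members called were 0 higher in parental cells with oxamate, 3 lower between lines under vehicle and 5 lower under oxamate. For a fold over 2, other scalings, DESeq2, limma-voom and libraries left out, the share of all genes called was not counted. Counts of members under those settings therefore have no share of all genes beside them. Without a limit on fold, they were 6 higher and 2 lower in parental cells with oxamate, 7 lower in resistant cells with oxamate and 6 lower for the difference of responses. With scaling by library size alone, 4 members were called lower under vehicle and 5 under oxamate, and 3 small values changed sign: HSPD1 in parental cells with oxamate (-0.054) and the differences of responses of HSPH1 (0.094) and BAG3 (0.043). The same scaling shifted the median of all genes by -0.074 in parental cells with oxamate and by 0.105 for the difference of responses. Why the scalings differ was not tested. With upper-quartile scaling HSPB1 under vehicle (-0.54) lay under the limit on fold. For the pair, leaving out each library gave log2 fold changes of 0.72 to 0.77 and -0.38 to -0.35 with oxamate, -1.95 to -1.89 and -3.05 to -3.01 between lines, and -1.13 to -1.08 for the difference, and no count of members called changed. Leaving out parental oxamate replicate 3 and resistant vehicle replicate 3 together was chosen after seeing the data. Fits with a replicate block, DESeq2 and limma-voom gave 2 members higher in parental cells with oxamate, 8 lower between lines and 3 lower for the difference. Replicate numbers were not treated as pairs, and the labels do not say whether they mark pairs. Same-numbered libraries of different groups had correlations of deviations from -0.0998 to 0.371, with a median of 0.0552. Libraries of other numbers had -0.299 to 0.185, with a median of -0.0498. Of 12 libraries 8 correlated best with their own number, so a pairing by number is not excluded. With the replicate block, 1364 genes were called in parental and 252 in resistant cells with oxamate, in place of 1368 and 192. Between lines it called 3367 under vehicle and 4998 under oxamate, in place of 3362 and 4976. For the difference it called 1115 in place of 1097.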
